A study of Mus musculus with 6 samples.

Results

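The genes that make, store and break down serotonin and the catecholamines were examined in islets of mice bred to delete Neurod1 in beta cells. They were chosen by gene symbol for their known function: the hydroxylases Tph1, Tph2 and Th, the decarboxylase Ddc, the dopamine hydroxylase Dbh, the vesicular transporters Slc18a1 and Slc18a2, and the oxidases Maoa and Maob. These are 9 of 23284 genes in the count files, and each was found there. The family was proposed with the values of the knockout and control libraries already known, so its differences between the groups are given as a description, and the threshold calls made on them are not independent evidence. The study isolated islets from 12-week-old mice and sequenced total RNA in bulk as single-end reads of 100 bp. The knockout group (libraries 4, 5 and 6) had the genotype Neurod1-floxed/floxed; Rip-Cre+, in which Cre recombinase is driven by the rat insulin promoter. The control group (libraries 7, 10 and 16) was Neurod1-floxed/floxed without Cre, and the labels give C56BL/J as the strain of both. The controls carried the floxed alleles but no Cre, so the deletion cannot be told apart from Cre or its transgene, and the labels do not name the Rip-Cre line. Nor is it stated that each library was made from its own animal, so the p-values reflect spread among these libraries only, which may be technical.

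Serotonin is made from tryptophan by tryptophan hydroxylase (Tph1 or Tph2), and dopamine from tyrosine by tyrosine hydroxylase (Th); the second step of both routes is the decarboxylase Ddc. Dbh then turns dopamine into noradrenaline, vesicular transporters load the amines into granules, and monoamine oxidases A and B degrade them. Mouse beta cells are known to store serotonin with insulin and to raise Tph1 and Tph2 in pregnancy, and the sympathetic nerve fibres that reach islets use Th and Dbh.

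Total counts per library were 12206393 to 16473159 in the knockout and 14424767 to 20412435 in the control, so that 1 count was worth 0.0490 to 0.0803 counts per 1e+06 counts (CPM). Neurod1 had 463, 444 and 389 counts in the knockout libraries, against 3839, 3614 and 2049 in the control libraries. The beta cell label held in both groups, with Ins2 the highest of 9 beta cell markers in every library. The summed level of the 9 markers was 131510 to 148040 CPM in knockout islets and 173310 to 191660 CPM in control islets. The gap lay in Ins1, at 3058.9 to 6008.3 CPM in knockout islets and 45199 to 51776 CPM in control islets, and without it the sums overlapped (128450 to 142030 CPM in the knockout, 128110 to 139890 CPM in the control). Of the 9 markers 3 rose (Slc2a2, Pdx1 and Nkx6-1), 2 fell (Ins1 and G6pc2) and 4 did not pass. The ribosomal RNA precursor Rn45s took 0.324% to 3.58% of knockout counts and 0.396% to 1.69% of control counts. By edgeR's quasi-likelihood test, 3600 of 14770 genes tested passed an adjusted p of 0.05, which is 24.4% of them.

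The promoters below belong to the enzymes that passed the genome-wide threshold and have an entry. RefSeq (GRCm38.p6) gave the 250 bases before the start of 7 of the 9 genes, and none of Slc18a1 or of Maob, which also passed. The 4 windows, in the gene's own direction from 5′ to 3′, belong to Th (chr7:142899996-142900245, minus strand), to both annotated starts of Ddc (chr11:11898145-11898394 and chr11:11890409-11890658, minus strand) and to Tph2 (chr10:115185023-115185272, minus strand). Capitals mark a match to TGACGTCA, the cyclic AMP response element, or to TATAAA, the TATA box.
Th: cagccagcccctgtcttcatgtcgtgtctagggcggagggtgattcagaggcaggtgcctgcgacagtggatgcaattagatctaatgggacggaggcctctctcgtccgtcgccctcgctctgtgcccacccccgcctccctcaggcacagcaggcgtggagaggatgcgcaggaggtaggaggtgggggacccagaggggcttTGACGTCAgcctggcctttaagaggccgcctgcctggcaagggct
Ddc, upstream start: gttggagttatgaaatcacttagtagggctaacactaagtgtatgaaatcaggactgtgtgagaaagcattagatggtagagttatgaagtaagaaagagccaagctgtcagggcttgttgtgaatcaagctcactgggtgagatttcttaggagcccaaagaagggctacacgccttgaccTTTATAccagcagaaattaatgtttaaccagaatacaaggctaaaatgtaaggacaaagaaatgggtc
Ddc, downstream start: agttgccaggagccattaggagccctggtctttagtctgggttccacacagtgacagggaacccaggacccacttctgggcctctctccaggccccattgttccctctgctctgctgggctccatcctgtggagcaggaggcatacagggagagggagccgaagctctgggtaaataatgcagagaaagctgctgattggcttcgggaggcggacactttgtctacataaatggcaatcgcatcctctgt
Tph2: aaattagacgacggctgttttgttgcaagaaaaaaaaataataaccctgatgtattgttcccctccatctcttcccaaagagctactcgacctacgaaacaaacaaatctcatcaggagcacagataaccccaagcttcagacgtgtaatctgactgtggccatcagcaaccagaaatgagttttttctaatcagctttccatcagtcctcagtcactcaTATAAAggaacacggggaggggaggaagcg
The Th window held TGACGTCA 45 bases before the start, and 1.55% of 32851 promoters of the same length held that motif. The Tph2 window held TATAAA 30 bases before the start. The upstream window of Ddc held the same motif on the other strand 68 bases before the start, and the downstream window held none of the motifs searched. TATAAA was in 12.4% of all promoters. The E-boxes CAGATG and CAGCTG, a kind of site that basic helix-loop-helix proteins such as Neurod1 bind, were in 14.4% and 13% of all promoters, and neither was in the windows of Th, Ddc, Tph1 or Tph2. Slc18a2 held CAGCTG 87 bases before its start. All motifs were searched on both strands and did not overlap in these windows, and a match or its lack is a description of these letters only.

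In the knockout, the serotonin hydroxylases were higher and the catecholamine hydroxylase was lower. Tph2, best known as the neuronal form, had 132, 277 and 170 counts in knockout libraries 4, 5 and 6, against 8, 19 and 31 in control libraries 7, 10 and 16. The lowest knockout library lay above the highest control library, and library 5 was the highest. The level averaged 13.4 ± 5.23 CPM in knockout islets and 1.16 ± 0.878 CPM in control islets (SD, n = 3 each), a log2 fold change of 3.59 (SE 0.57) or 12.1-fold, past the genome-wide threshold. Tph2 entered the test through its knockout libraries, since control library 7 held only 8 counts. With the summed level of acinar cell markers as a covariate its log2 fold change was 3.48 and the call was lost (adjusted p = 0.0764). In bulk RNA, a change in the number of cells of a type cannot be told apart from a change in RNA per cell.

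Tph1, the hydroxylase of peripheral tissues, had 9, 43 and 11 counts in the knockout libraries, against 0, 1 and 3 in the control libraries. Every knockout library was above every control library, but library 5 held most of the knockout counts. The gene had too few counts for the test. Summed over libraries there were 63 counts in the knockout (exact Poisson 95% interval 48.4 to 80.6) and 4 in the control (1.09 to 10.2). Scaled to library size, the knockout rate was 19.6 times the control rate (95% interval 7.29 to 74.2). It was 9.49 times (3.18 to 38.2) without knockout library 5 and 57.6 times (9.98 to 2312) without control library 16. These intervals cover counting error only, and reads without molecular identifiers are not independent molecules. Even in library 5, Tph1 was at 2.88 CPM, below the Tph2 level of 18.5 CPM there, and the same order held per length (0.631 and 7.06 CPM per kb of transcript).

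Th, whose step limits the rate at which catecholamines are made, had 108, 118 and 112 counts in the knockout libraries, against 652, 955 and 446 in the control libraries. The groups did not overlap, and the 3 knockout libraries lay close together. Th fell 4.75-fold, with 7.84 ± 1.18 CPM in knockout islets and 37.0 ± 8.62 CPM in control islets (SD, n = 3 each) and a log2 fold change of -2.25 (SE 0.19). The balance of Tph2 and Th differed between the groups: Tph2 had 1.22, 2.35 and 1.52 counts for each count of Th in the knockout libraries, against 0.0123, 0.0199 and 0.0695 in the control libraries. This ratio of counts is not corrected for length and serves only to compare libraries. In CPM per kb of transcript, Tph2 was at 5.12 ± 1.99 and Th at 4.02 ± 0.607 in the knockout, where their libraries overlapped, and Tph2 at 0.440 ± 0.334 and Th at 19.0 ± 4.42 in the control, where they did not (SD, n = 3 each).

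**Figure D1:**
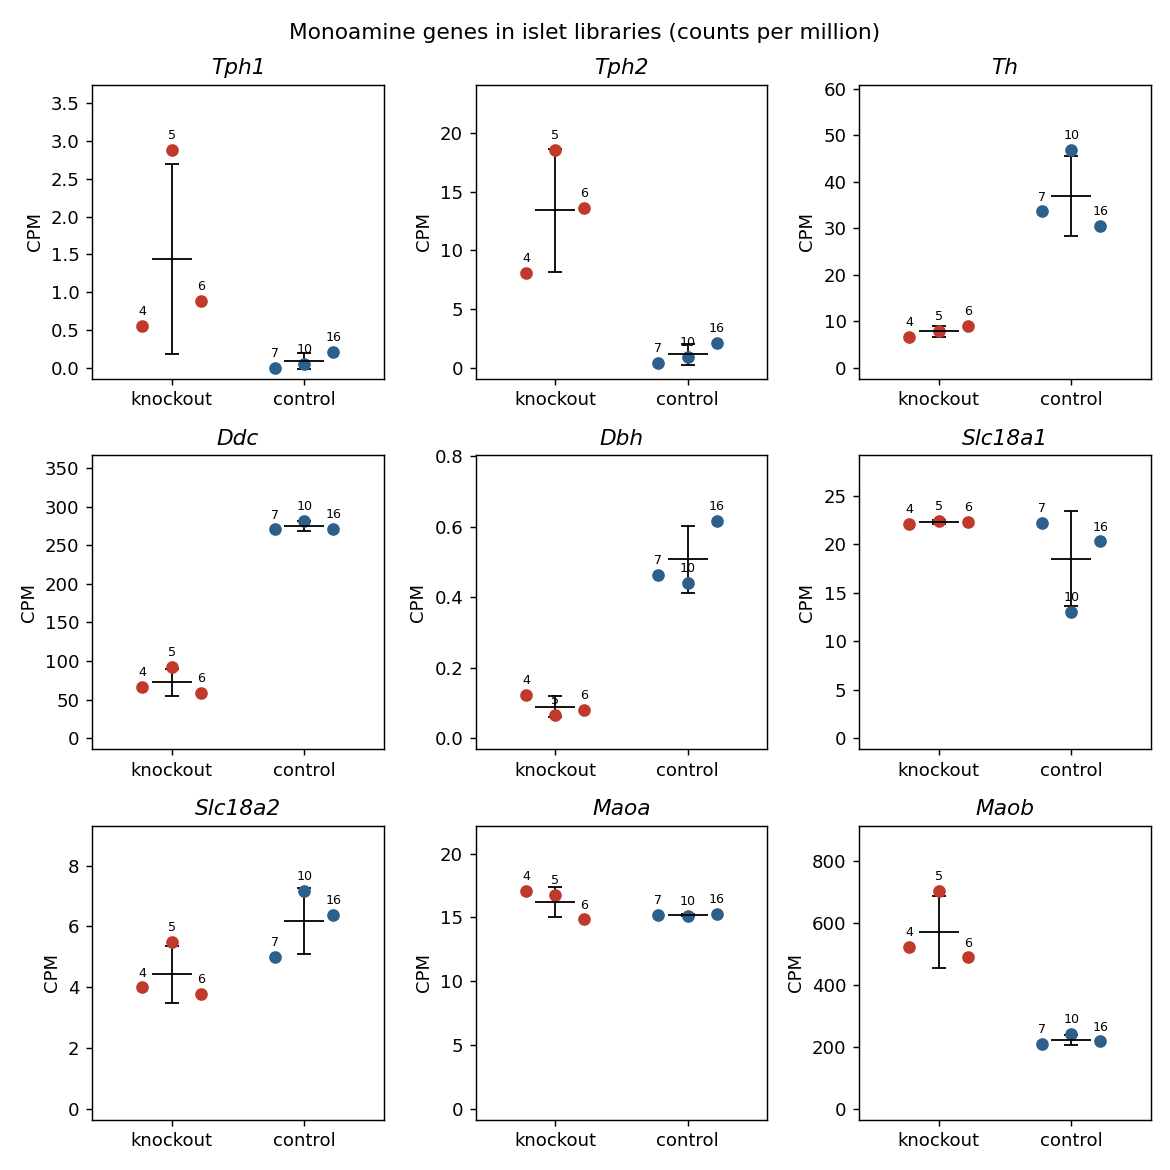
Level of each of the 9 genes in CPM (linear axes from 0), knockout libraries on the left and control libraries on the right, with the library number at each point and the mean with SD as bars. Tph1, Tph2 and Maob were higher in every knockout library, Th, Ddc and Dbh were lower in every knockout library, and the groups overlapped for Slc18a1, Slc18a2 and Maoa.

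Ddc, which makes both serotonin and dopamine from their hydroxylated precursors, was lower in the knockout. It had 1085, 1374 and 726 counts in the knockout libraries, against 5242, 5750 and 3961 in the control libraries. In CPM this was 66.6, 92.0 and 58.3 in knockout islets and 271, 282 and 272 in control islets. The control libraries were nearly level, and the highest knockout library was far below them. Ddc fell 3.80-fold, with 72.3 ± 17.6 CPM in knockout islets and 275 ± 6.22 CPM in control islets (SD, n = 3 each) and a log2 fold change of -1.92 (SE 0.16). Reads of the noncoding RNAs Gm51937 and 1700042O10Rik, which overlap Ddc in RefSeq, could not be told apart from its own, since the sources used here do not give the strand setting of the counting. The ratio of Ddc to Th did not separate the groups: Ddc had 10.05, 11.6 and 6.48 counts for each count of Th in the knockout libraries and 8.04, 6.02 and 8.88 in the control libraries, and these ranges overlapped.

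Dbh, the enzyme of noradrenaline-producing cells, was close to the detection limit. It had 2, 1 and 1 counts in the knockout libraries, against 9, 9 and 9 in the control libraries. Every control library was higher, but the gene had too few counts for the test. The sums were 4 counts in the knockout (exact Poisson 95% interval 1.09 to 10.2) and 27 in the control (17.8 to 39.3). The knockout rate was 0.184 times the control rate (95% interval 0.0469 to 0.529, counting error only).

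The vesicular transporters did not pass the threshold. Slc18a1, the transporter of endocrine cells, had 22.1, 22.4 and 22.3 CPM in knockout islets libraries, against 22.2, 13.0 and 20.3 CPM in control islets libraries. Control library 10 stood lowest, and control library 16 was slightly below the other 4 libraries. The log2 fold change of Slc18a1 was 0.27 (SE 0.18), and 0.065 without control library 10. RefSeq shows an overlap of Slc18a1 with the proton pump gene Atp6v1b2, so some of these reads may be of that gene. Slc18a2, the transporter of neurons, known also from human beta cells, had 3.99, 5.49 and 3.77 CPM in knockout islets libraries, against 5.01, 7.15 and 6.38 CPM in control islets libraries. The groups overlapped, and the log2 fold change was -0.48 (SE 0.22).

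The oxidases differed from each other. Maob, which in the mouse prefers phenylethylamine and other trace amines, had 8513, 10512 and 6101 counts in the knockout libraries, against 4081, 4915 and 3177 in the control libraries. In CPM this was 522, 704 and 490 in knockout islets and 211, 241 and 218 in control islets, with no overlap. Maob rose 2.56-fold, with 572 ± 115 CPM in knockout islets and 223 ± 15.8 CPM in control islets (SD, n = 3 each) and a log2 fold change of 1.36 (SE 0.14). Maoa, which prefers serotonin and noradrenaline, had 17.1, 16.7 and 14.9 CPM in knockout islets libraries, against 15.2, 15.1 and 15.3 CPM in control islets libraries. Its groups overlapped, and its log2 fold change was 0.10 (SE 0.10). Maob had 30.6, 42.0 and 33.0 counts for each count of Maoa in the knockout libraries, against 13.9, 15.96 and 14.2 in the control libraries. The lowest of these ratios in the knockout was above the highest in the control. The transcripts of Maoa and Maob shared 0 words of 50 bases, and the same held for Tph1 and Tph2 and for Slc18a1 and Slc18a2, so no stretch of that length was common to both transcripts of a pair.

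Of the 9 genes, 7 had enough counts to be tested. Tph2 and Maob were called higher in the knockout, where 11.8% of all genes tested were, and Th and Ddc were called lower, where 12.6% of all genes tested were. In 4 of the 7 tested genes the groups did not overlap, against 42.0% of all genes tested. Nothing is read from these shares, because the family was proposed from the same contrast. The median log2 fold change of the 7 was 0.10 and that of all genes tested -0.0075. Within the knockout, library 5 was the highest in CPM for 6 of the 9 genes (Tph1, Tph2, Ddc, Slc18a1, Slc18a2 and Maob), library 4 for 2 (Dbh and Maoa) and library 6 for 1 (Th). The calls of Tph2, Th, Ddc and Maob held without any single library, and the range of each log2 fold change over these 6 fits lay on 1 side of 0.

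**Figure D2:**
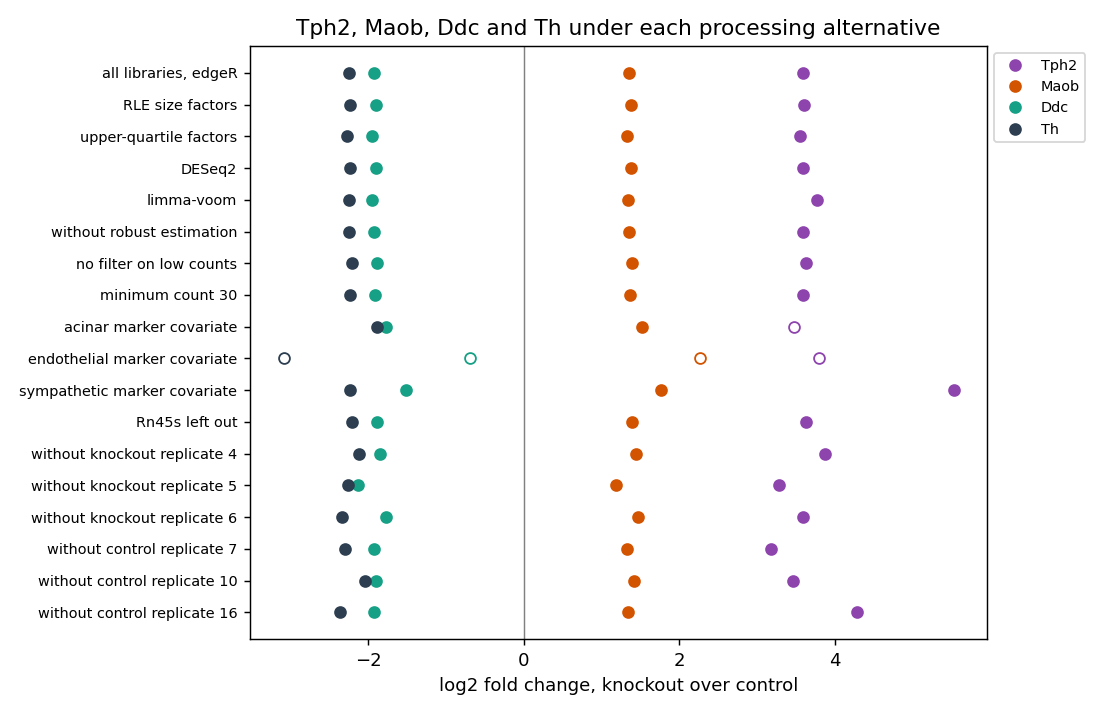
Log2 fold change of Tph2, Maob, Ddc and Th, knockout over control, for all libraries with edgeR (top) and under each of 17 processing alternatives; filled points passed an adjusted p of 0.05 and open points did not. The signs are the same in every line, the endothelial covariate has only open points, and the acinar covariate has an open point for Tph2.

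Levels between genes were compared per length, as CPM per kb of the longest protein-coding transcript of each gene. In the knockout, Maob was the highest at 237 ± 47.8, followed by Ddc at 35.8 ± 8.71 and Slc18a1 at 7.15 ± 0.0556 (SD, n = 3 each). Tph2 at 5.12 ± 1.99, Th at 4.02 ± 0.607 and Maoa at 3.89 ± 0.286 came next, and their knockout libraries overlapped. Slc18a2 at 1.17 ± 0.247, Tph1 at 0.315 ± 0.276 and Dbh at 0.0353 ± 0.0114 were the lowest. In the control, Ddc was the highest at 136 ± 3.09, followed by Maob at 92.5 ± 6.56, Th at 19.0 ± 4.42, Slc18a1 at 5.94 ± 1.57 and Maoa at 3.64 ± 0.0237 (SD, n = 3 each). Slc18a2 at 1.63 ± 0.288, Tph2 at 0.440 ± 0.334, Dbh at 0.199 ± 0.0375 and Tph1 at 0.0186 ± 0.0236 closed the order, and the control libraries of Tph2 and Dbh overlapped. Thus Maob was above Ddc in each knockout library and Ddc was above Maob in each control library. The lengths are from a GRCm38 annotation and the counts from mm9, so the counted transcripts may differ in length.

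**Figure D3:**
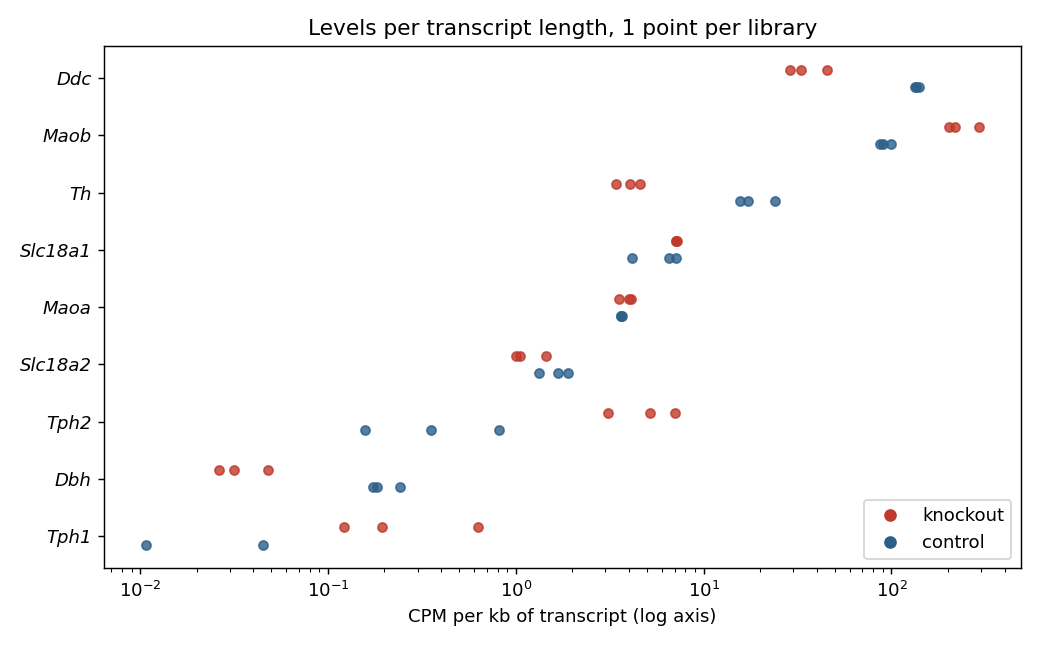
Level per transcript length (CPM per kb, log axis) of the 9 genes, 1 point per library, knockout above control within each gene; Tph1 in control library 7 was at 0 and is not drawn. Maob lies at the top in the knockout and Ddc in the control, and Tph2 lies among Th and Maoa in the knockout but below them in the control.

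The hydroxylases need the cofactor tetrahydrobiopterin. Of 8 cofactor genes 7 were tested, 1 rose, 0 fell and 6 did not pass, with a median log2 fold change of 0.16, beside 11.8% higher and 12.6% lower over all genes tested. A count of 1 in 7 is near that background. Pcbd1, which recycles the cofactor, rose to 113 ± 11.8 CPM in knockout islets, against 78.9 ± 0.584 CPM in control islets (SD, n = 3 each), by 0.52 on the log2 scale (SE 0.08, adjusted p = 0.00258). Gch1, the first and rate-limiting enzyme of the cofactor and the most abundant of the list, was at 172 ± 24.1 CPM in knockout islets and 145 ± 12.2 CPM in control islets (log2 fold change 0.24, SE 0.11, adjusted p = 0.146). Qdpr, the other recycling enzyme, had a log2 fold change of -0.23 (adjusted p = 0.0514), which passed with upper-quartile scaling (0.0303) and without control library 10 (0.0491).

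Among other enzymes of amine synthesis, 2 of 4 genes were tested, 1 rose, 0 fell and 1 did not pass (median 2.81). Over all genes tested, 11.8% were higher and 12.6% lower. Moxd1, a relative of Dbh, had 1135, 341 and 339 counts in the knockout libraries, against 7, 22 and 17 in the control libraries. It rose by 5.54 on the log2 scale (SE 0.72, adjusted p = 0.00656), and by 4.88 without knockout library 4, the highest, and by 3.85 with the acinar covariate. Like Tph2, it entered the test through the knockout libraries, since control library 7 lay under the filter cutoff. Hdc, which makes histamine, had a log2 fold change of 0.08 (SE 0.45, adjusted p = 0.921). Pnmt, which makes adrenaline, had 0 counts in all 6 libraries.

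Of 8 other breakdown genes 7 were tested, 3 rose, 2 fell and 2 did not pass (median -0.12), beside 11.8% higher and 12.6% lower over all genes tested. The histamine methyltransferase Hnmt rose by 0.66 (SE 0.14, adjusted p = 0.00997), and the fatty aldehyde dehydrogenase Aldh3a2 rose by 0.52 (SE 0.07, adjusted p = 0.00115). Rnls rose by 0.52 (SE 0.14, adjusted p = 0.0236), and leaving out knockout library 4, control library 7 or control library 10 ended that call (0.0596 to 0.0872). Aldh2, which clears the aldehydes that monoamine oxidases produce, had a log2 fold change of -0.36 (SE 0.08, adjusted p = 0.0119). The phenol sulfotransferase Sult1a1 had one of -1.11 (SE 0.24, adjusted p = 0.0132), and its call was lost without knockout library 5 or 6 (0.0510 and 0.0517). With the acinar covariate Hnmt (adjusted p = 0.0716), Aldh2 (0.162) and Rnls (0.369) were not called.

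For amines and their precursors, 5 of 11 transport genes were tested, 2 rose, 2 fell and 1 did not pass (median 0.18), against the same background of 11.8% and 12.6%. The reuptake transporters were close to absent: Slc6a4, for serotonin, had 3, 4 and 2 counts in the knockout libraries and 7, 3 and 5 in the control libraries, and Slc6a3, for dopamine, had 0 in all. The low-affinity amine transporter Slc29a4 fell to 18.1 ± 1.86 CPM in knockout islets, against 39.8 ± 4.38 CPM in control islets (log2 fold change -1.14, SE 0.11, adjusted p = 2.30e-04). The large amino acid transporters, which carry tryptophan and tyrosine, moved in opposite directions. Slc7a8 rose to 550 ± 93.0 CPM in knockout islets, against 217 ± 31.1 CPM in control islets (1.35, SE 0.14, adjusted p = 5.26e-04), whereas Slc7a5 fell to 87.6 ± 6.65 CPM in knockout islets, against 155 ± 29.6 CPM in control islets (-0.82, SE 0.13, adjusted p = 0.00399). Their shared heavy chain Slc3a2 rose by 0.33 (SE 0.10, adjusted p = 0.0480), and 4 of the 6 fits with a library left out ended this call (0.116 to 0.159 without knockout library 4, knockout library 5, control library 10 or control library 16). The call also ended with upper-quartile scaling (0.0550), limma-voom (0.0511) and fitting without robust estimation (0.0559), and the CPM of Slc3a2 overlapped between groups. With the acinar covariate Slc7a5 (adjusted p = 0.0914) and Slc3a2 (0.172) did not pass. The SDs in this paragraph are over n = 3 libraries each.

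Most receptors of these amines had too few counts. Of 14 serotonin receptors 2 were tested, 1 rose and 1 fell, beside 11.8% higher and 12.6% lower over all genes tested. Htr1d, an inhibitory receptor, had 29, 38 and 41 counts in the knockout libraries, against 9, 12 and 11 in the control libraries, and rose by 2.07 on the log2 scale (SE 0.36, adjusted p = 0.00424). Only 1 control library reached the filter cutoff of 0.634 CPM, so Htr1d entered the test through the knockout libraries, where it was high. Htr3a, the serotonin-gated ion channel, had 24, 66 and 35 counts in the knockout libraries, against 108, 128 and 135 in the control libraries, with a log2 fold change of -1.27 (SE 0.38, adjusted p = 0.0446). That call was lost without any single library other than knockout library 5 (0.0649 to 0.126), and with the acinar covariate (0.216). Of 14 catecholamine receptors 3 were tested and 1 rose, against the same background. Adra2a, the alpha-2A receptor through which noradrenaline inhibits insulin release, was at 220 ± 16.9 CPM in knockout islets and 172 ± 22.1 CPM in control islets (SD, n = 3 each), a log2 difference of 0.35 (SE 0.10, adjusted p = 0.0379) and a call that ended without knockout library 5, knockout library 6, control library 10 or control library 16 (0.0930 to 0.118).

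**Figure D4:**
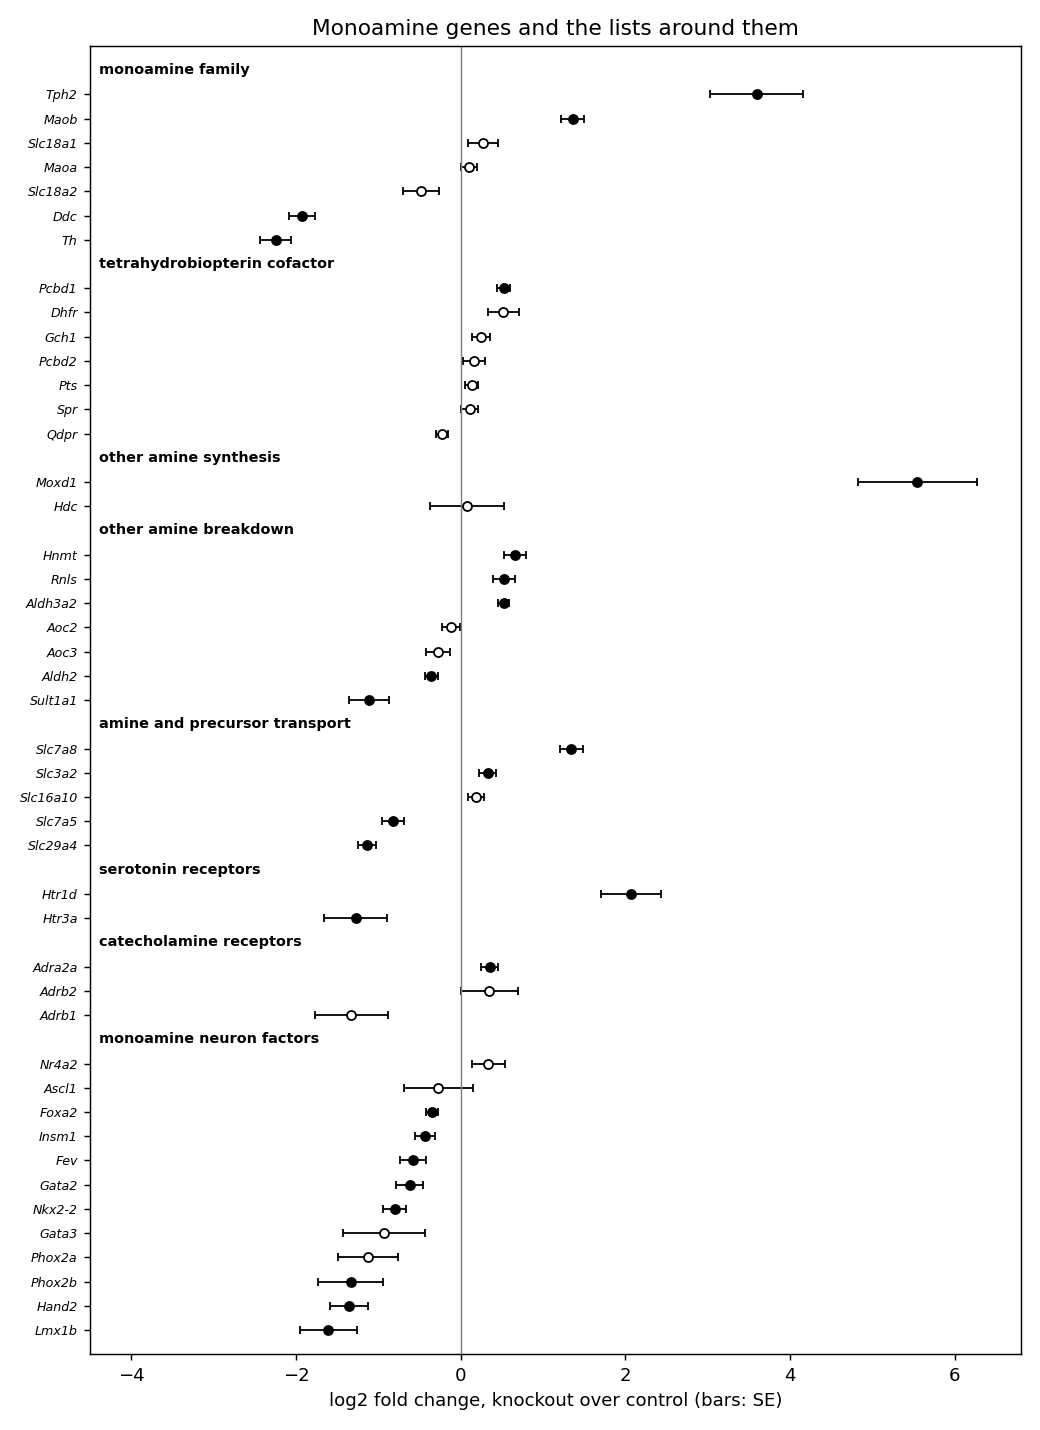
Log2 fold change with SE, knockout over control, of the tested genes of the family and of the 7 lists around it; filled points passed an adjusted p of 0.05 and open points did not. Every called gene among the transcription factors known from monoamine neurons lies left of 0, while the other lists of more than 1 called gene hold calls on both sides.

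Among transcription factors known from monoamine neurons the calls were in 1 direction. Of 14 factors 12 were tested, 0 rose, 8 fell and 4 did not pass, with a median log2 fold change of -0.71, beside 11.8% higher, 12.6% lower and a median of -0.0075 over all genes tested. Lmx1b, a factor of serotonin and dopamine neurons, fell to 0.745 ± 0.188 CPM in knockout islets, against 2.30 ± 0.648 CPM in control islets (-1.61, SE 0.35, adjusted p = 0.0108); only 2 of its 3 knockout libraries reached the cutoff of the low-count filter, so it entered the test through the control. Nkx2-2, which serotonin neurons share with islet cells, fell to 55.9 ± 7.25 CPM in knockout islets, against 97.4 ± 16.3 CPM in control islets (-0.80, SE 0.14, adjusted p = 0.00544). Fev, the serotonin neuron factor also called Pet1, was at 6.09 ± 0.0795 CPM in knockout islets and 9.14 ± 1.37 CPM in control islets (-0.58, SE 0.16, adjusted p = 0.0275), and its call was lost without any single library other than control library 10 (0.0616 to 0.107). Hand2, a factor of sympathetic neurons, fell to 2.96 ± 0.614 CPM in knockout islets, against 7.59 ± 1.45 CPM in control islets (-1.36, SE 0.23, adjusted p = 0.00363). Foxa2 (-0.35, SE 0.08, adjusted p = 0.0117) and Gata2 (-0.62, SE 0.17, adjusted p = 0.0276) also fell. Foxa2 was at 74.4 ± 6.04 CPM in knockout islets and 94.6 ± 3.94 CPM in control islets. Like Nkx2-2, it was far more abundant than Lmx1b, Fev, Hand2 and Gata2. Which cells carried these factors was not tested, and the list is not particular to monoamine neurons. The number of factors that fell was 3 to 6 when 1 library was left out, 3 without control library 7, 1 (Hand2) with the acinar covariate, and 0 with the endothelial or the sympathetic covariate. Adjusted p-values with the acinar covariate were 0.0844 for Nkx2-2, 0.184 for Lmx1b, 0.148 for Fev, 0.169 for Foxa2 and 0.135 for Gata2. Gata2 passed only without knockout library 5 among the fits with 1 library left out (0.0529 to 0.0928 in the others), and Foxa2 missed the threshold only without control library 7 (0.0522). The SDs are over n = 3 libraries each.

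Markers of sympathetic neurons and chromaffin cells were mostly lower in the knockout, and whether such cells carried Th, Ddc or Dbh was not tested. The summed level of 10 markers of sympathetic neurons and chromaffin cells was 41.5, 61.3 and 43.9 CPM in knockout islets libraries, against 68.2, 86.5 and 102 CPM in control islets libraries (exact two-sided permutation p = 0.1, the smallest that 3 against 3 libraries allow). Of 8 tested markers 6 fell and 1 rose, with a median log2 fold change of -1.09, beside 12.6% lower and 11.8% higher over all genes tested. The neuronal intermediate filament Prph had -1.30 (SE 0.22, adjusted p = 0.00477) and the axonal Stmn2 -1.06 (SE 0.21, adjusted p = 0.0105), whereas the nicotinic subunit Chrnb4 rose by 0.81 (SE 0.24, adjusted p = 0.0400). The number of these markers called was 3 to 5 with 1 library left out, 1 (Hand2) with the acinar covariate, and 0 with the endothelial or the sympathetic covariate. Chrnb4 passed in 9 of 17 alternatives, and missed the threshold without knockout library 5, control library 7, control library 10 or control library 16 (0.0867 to 0.132), with the acinar covariate (0.0981) and with limma-voom (0.0589). Of the defining markers, Pnmt was at 0 throughout and Slc6a2, the noradrenaline transporter, had 0, 0 and 3 counts in the knockout libraries and 2, 2 and 6 in the control libraries. Th had 0.621, 0.484 and 0.800 counts for each count of Stmn2 in the knockout libraries, against 1.61, 1.76 and 0.943 in the control libraries, and every knockout ratio was the lower. With the summed level of these markers as a covariate, chosen after seeing the data, the log2 fold changes were -2.23 for Th (adjusted p = 0.0260), -1.52 for Ddc (0.0124), 5.53 for Tph2 (0.00226) and 1.76 for Maob (0.00363). The marker sums did not overlap between the groups, so this covariate and the genotype cannot be fully told apart in 6 libraries. Control library 16 had the highest marker sum and the lowest Th of the controls.

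**Figure D5:**
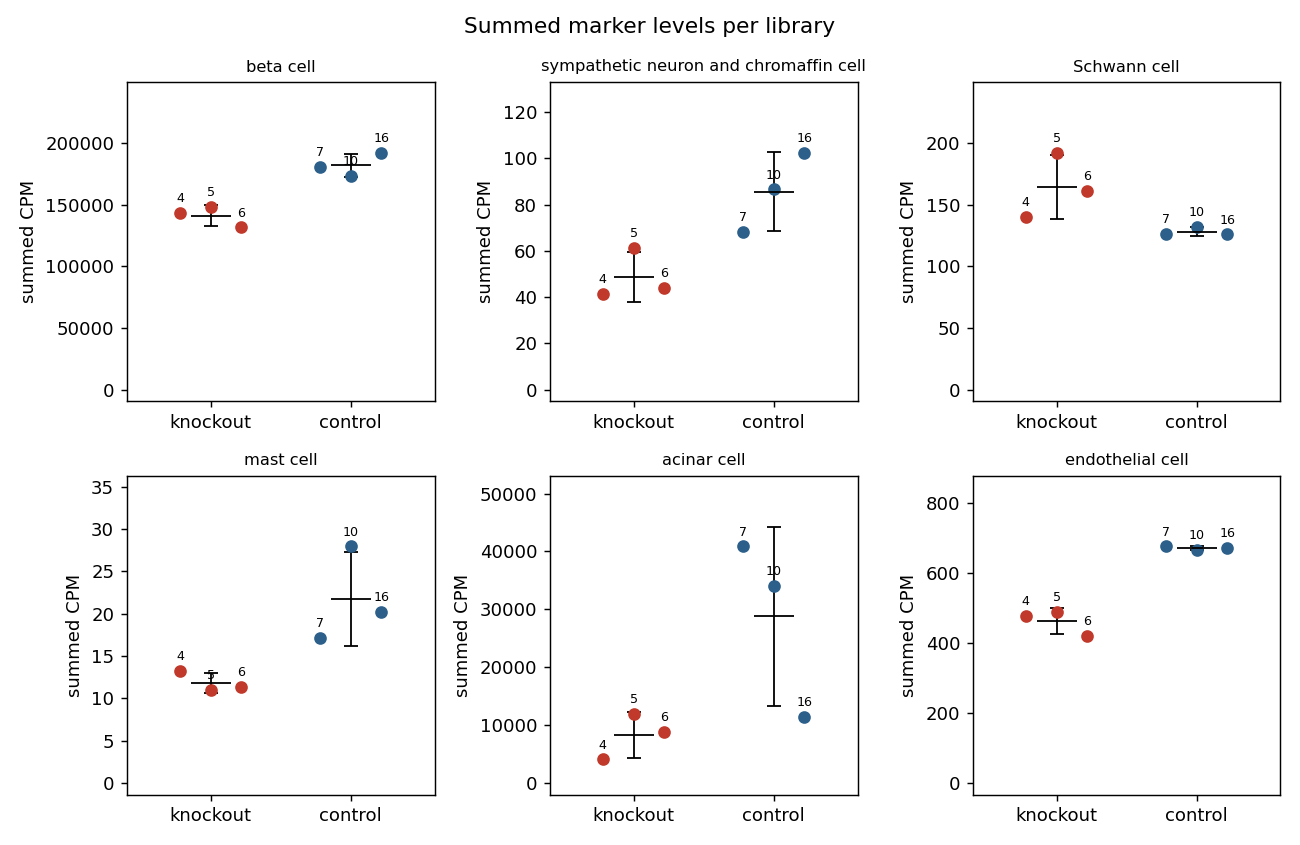
Summed CPM of 6 marker lists per library (linear axes from 0), knockout on the left and control on the right, with the library number at each point and the mean with SD as bars. Sympathetic and endothelial sums were lower in every knockout library, as was the mast cell sum, whose gap lay in Kit. The acinar sums overlapped. The lower beta cell sum and the higher Schwann cell sum of the knockout lay in Ins1 and Ngfr, without which these 2 sums overlapped.

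Mast cells and platelets also carry serotonin genes. The mast cell list summed to 10.98 to 13.2 CPM in knockout islets and 17.1 to 27.9 CPM in control islets, nearly all of it Kit and Hdc. This gap lay in Kit, at 9.04 to 10.1 CPM in knockout islets and 15.5 to 26.7 CPM in control islets. Hdc overlapped between the groups. The defining mast cell markers Cpa3, Mcpt4, Tpsb2 and Cma1 had at most 2 counts in a library, and Ms4a2 and Fcer1a had 0. The 5 platelet markers summed to 6.32 to 7.30 CPM in knockout islets and 5.68 to 7.27 CPM in control islets (exact permutation p = 0.5). Acinar markers summed to 4050.5 to 11929 CPM in knockout islets and 11398 to 40862 CPM in control islets, where libraries 7 and 10 were the high ones (exact permutation p = 0.2). The sums of endothelial markers (419 to 490 CPM in knockout islets, 665 to 676 CPM in the control) and of stellate cell and fibroblast markers (621 to 827 CPM in the knockout, 898 to 1223 CPM in the control) did not overlap, and neither did those of 8 Schwann cell markers (139.9 to 192 CPM in the knockout, 126 to 132 CPM in the control; exact permutation p = 0.1 for each of these lists). The Schwann cell gap lay in Ngfr, at 25.1 to 57.2 CPM in the knockout and 4.90 to 10.8 CPM in the control. Without Ngfr the Schwann cell sums overlapped (112 to 135 CPM in the knockout, 115 to 126 CPM in the control), and 6 of the 8 markers did not pass, with a list median of -0.11. With the endothelial sum as a covariate, the calls of Tph2, Th, Ddc and Maob were all lost. The endothelial sums hardly varied within the control, so this covariate and the genotype cannot be told apart in 6 libraries. What part the other cell types had in the results was not tested beyond these covariates.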

How the data were processed

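RNA of isolated islets was measured in 6 bulk libraries, 3 per genotype, grouped by their titles. The authors deposited raw gene counts of every library. They also deposited their own comparison, with mean size-factor scaled counts per group (a signal), fold changes (a ratio), log2 fold changes and p-values. The build was mm9 and the tools were TopHat2 2.1.0, Cufflinks 2.0.2, bcl2fastq 1.8.4 and DESeq (no version), per the submitters' processing notes. The counter, annotation and strand setting were not given in the sources used here. In the authors' deposited table the log2 fold change was 4.11 for Tph1 (adjusted p = 0.111), 3.56 for Tph2, -2.22 for Th, -1.91 for Ddc, -2.48 for Dbh (adjusted p = 0.259) and 1.38 for Maob.

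Counts were fitted with edgeR 4.0.16 in R 4.3.3: filterByExpr (minimum count 10, total 15), TMM scaling (factors 0.988 to 1.02), robust quasi-likelihood F tests and Benjamini-Hochberg adjustment over all 14770 genes tested at 0.05. Adjusted p-values in the text come from this fit except where a different tool is given. CPM are per 1e+06 counts with TMM-scaled library sizes, and SEs come from the F statistic. The biological coefficient of variation was 14.2%, and replicate libraries differed beyond sampling noise (15.9 to 41.5 for chi-square over its degrees of freedom), so all were kept as separate. The fit was checked on simulated counts. DESeq2 1.42.0, limma 3.58.1 (voom), other scalings and filters, marker covariates and leaving out each library were the alternatives. Transcript lengths are the longest protein-coding transcripts of a GENCODE annotation of GRCm38. Promoters are from the RefSeq table of GRCm38.p6, matched by symbol. Named genes were all members, up to 6 called genes of each list by smallest p (or the most abundant where none passed), the 3 nearest profiles of the 3 members with the smallest p, and markers; Qdpr, Hdc, the reuptake transporters and neighbouring genes were named after their values were seen. The members and lists were chosen with earlier results of these data known. Asmt and Akr1a4 were not matched by symbol and are not analysed here, and some other genes of these pathways are left out of the lists and not reported here.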

Additional observations from a re-analysis of the deposited data

How the results depend on the processing

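Of 17 alternatives, 16 were planned and 1, the sympathetic marker covariate, was chosen after seeing the data. Th, Ddc and Maob passed in 16 and Tph2 in 15 of the 17, and Slc18a1, Slc18a2 and Maoa in 0. The log2 fold changes ranged from 3.19 to 5.53 for Tph2, -3.09 to -1.89 for Th, -2.14 to -0.69 for Ddc and 1.18 to 2.26 for Maob. The endothelial covariate gave adjusted p = 0.509 for Tph2, 0.256 for Th, 0.534 for Ddc and 0.174 for Maob. Of all genes tested, 3600 were called; the number was 1737 with the acinar, 7 with the endothelial and 624 with the sympathetic covariate, and 2378 (without control library 10) to 2969 with 1 library left out. Of 38 tested genes of the lists around the family, 22 were called, 9 higher and 13 lower, beside 24.4% of all genes tested. The lists were chosen with earlier results of these data known, so nothing is read from this share. Of the lower calls, 8 were among the monoamine neuron factors. The number called was 9 with the acinar, 0 with the endothelial and 5 with the sympathetic covariate, and 15 to 18 with 1 library left out. With the endothelial covariate, 8 of these 38 and 1843 genes in all had an unadjusted p under 0.05 by edgeR. With the sympathetic covariate the log2 fold change turned to 0.0033 for Htr3a and 0.13 for Chrna3, and with the endothelial one to 0.16 for Lmx1b, 0.019 for Chrna3 and 0.29 for Gap43; the cause was not tested. Slc18a2, which was not called, was at 0.36 with the endothelial and 0.15 with the sympathetic covariate. Without a filter on low counts, edgeR tested Tph1 (log2 fold change 4.16, SE 0.95, adjusted p = 0.0140) and Dbh (-2.33, SE 0.68, adjusted p = 0.0318). Of all calls 48.2% were higher in the knockout, and 42.8% to 55.4% over the other scalings and filters. Counts of 0 to 3 per library limit Tph1 in the control and Dbh and Slc6a2 in the knockout, and Slc6a4 had 2 to 7 per library. No paired analysis was possible because the groups share no replicate number.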

Other observations

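By the distance between mean-centred log2 CPM profiles (prior count 2) over the 6 libraries, among 11343 genes with at least 5 CPM on average, the genes nearest to Th were Tmem206 (0.52), Lifr (0.53) and Ret (0.55). Their log2 fold changes were -2.23 (SE 0.08) for Tmem206, -1.93 (SE 0.10) for Lifr and -2.25 (SE 0.11) for Ret, beside -2.25 for Th. Nearest to Ddc were Cabp7 (0.28), Btbd17 (0.30) and Shc2 (0.33), and nearest to Maob were Osbpl10 (0.23), Tnfrsf22 (0.23) and Clmn (0.24). These are likenesses within 6 libraries that fall into 2 genotypes, so any gene with a like fold change comes near.

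In the order of genes in the RefSeq table of GRCm38.p6, Ins2, the neighbour of Th, had a log2 fold change of 0.03 (SE 0.10, adjusted p = 0.873 by edgeR). Ddc lies between Fignl1 and Grb10. The imprinted gene Grb10 fell, with a log2 fold change of -0.72 (SE 0.06, adjusted p = 1.11e-04), and passed in 16 of 17 alternatives. Fignl1 rose by 1.32 (SE 0.35, adjusted p = 0.0265) and passed in 10 of the 16 alternatives that gave it a value. Maoa and Maob are neighbours on the X chromosome, and only Maob passed the threshold. The difference between their fold changes was not tested.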
